A study of Mus musculus with 11 samples.

Results

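The olfactory receptor genes of the mouse, odorant receptors (ORs) and trace amine-associated receptors (TAARs) alike, are switched on from enhancers that are bound or organised by a small group of nuclear proteins. Transcripts of 8 such factors, Lhx2, Ldb1, Ebf1, Ebf2, Ebf3, Ebf4, Emx2 and Bptf, were followed in RNA-seq of the whole main olfactory epithelium (MOE), the nasal tissue that holds the olfactory sensory neurons (OSNs). The genes were chosen by name for this role and not by their levels, and all 8 were among the 24421 entries of the count table. The 11 libraries came from C57BL/6 mice labelled P1-P2 (postnatal days 1 to 2): 3 wild type, 4 heterozygous and 4 homozygous for a germline deletion of the Taar cluster from Taar2 to Taar9, with 2, 1 and 0 intact copies. The paper places TAAR enhancer 1 outside the deleted segment and TAAR enhancer 2 inside it, and it gives another age and a mixed background for this line, which was not settled here. The labels did not say whether the libraries of a genotype came from separate animals, so that p-values measure only the spread between these libraries.

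Lhx2 is a LIM homeodomain factor that binds OR enhancers and OR promoters. Ldb1 does not bind DNA itself and joins LIM proteins into larger complexes that bring distant enhancers together. The Ebf (early B cell factor, also Olf/Ebf) proteins bind DNA as dimers, often beside Lhx2. Emx2 is a homeodomain factor of the olfactory lineage, and Bptf is the largest subunit of the NURF chromatin remodelling complex.

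To show where the genes of these factors themselves carry the core letters that homeodomain and Ebf proteins recognise, their promoters were searched. The windows, from RefSeq (build GRCm38.p6, the same assembly as mm10), ran from 250 bases before to 50 bases after a start site. Of the 8 genes 7 were listed, with 11 windows in all; Ebf2 was the other. The homeodomain core TAATTA and the Ebf core CCCNNGGG (N is any base) were sought on both strands, each reading the same on either. TAATTA was in 1 of the 11 windows and in 5.29% of all 32851 windows. CCCNNGGG was in 3 of the 11 and in 13.7% of all windows. The 3 windows with it, of Lhx2, Ebf3 and Ldb1, had 69.33%, 77% and 67.33% G and C, beside a median of 52.67% over all windows. Enrichment was not tested. The 4 matches follow 5′ to 3′ on the strand of the gene, with the matched letters in capitals and up to 11 bases on each side.
Lhx2 (chr2:38351298-38351327, plus strand): ttgggaacacaCCCCGGGGggaagagacgt
Ebf3 (chr7:137314448-137314477, minus strand): acagcgccgctCCCGGGGGcttcgagtttt
Ldb1 (chr19:46039650-46039679, minus strand): ccctccgcccgCCCTGGGGcctccttcgga
Emx2 (chr19:59458715-59458739, plus strand): gatccccgcacTAATTAggctcatg

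The Lhx2 match began 2 bases into the transcript from the second listed start, within an exon annotated as untranslated, and another CCCNNGGG match overlapped it 1 base further on. That of Ebf3 lay 21 bases before its start and outside the gene. The Ldb1 match lay 47 bases before an internal start, in an intron of the longer transcripts. The Emx2 match lay in the untranslated part of an exon, at base 37 of the transcript. The windows of Ebf1, Ebf4 and Bptf held neither core. These matches are descriptions of letters and no binding was measured.

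The libraries held 9239866 to 14632525 counts. The summed counts of the 14 olfactory Taar genes, the check of the deletion, were 94, 87 and 119 in the wild type libraries in the order of replicates. The heterozygous libraries held 96, 89, 68 and 31 such counts, and the homozygous ones 1, 1, 2 and 3. On the first principal component (42.6% of the variance over 15994 genes, computed without the 8 factors and the receptors) the libraries fell into 2 sets that crossed genotype. Set 1 held wild type 1 and 2, heterozygous 3 and 4 and homozygous 1 and 2, and set 2 held wild type 3, heterozygous 1 and 2 and homozygous 3 and 4. Meg3, a long noncoding RNA, was at 218 to 517 CPM in set 1 and at 1212 to 1528 CPM in set 2, where CPM is the count scaled to a common library total after TMM scaling of the libraries. Xist, the RNA of the inactive X chromosome, was at 1327 CPM or more in every wild type library, in heterozygous 3 and in homozygous 1, and at 1.70 CPM or less in the other 6, so that its level and wild type cannot be fully told apart. In homozygous 2 the ribosomal RNA Rn45s took 25.8% of the counts, against at most 0.786% elsewhere. All 12 markers of mature OSNs had counts in every library, with a summed level of 1502 to 2720 CPM. Of 3 vomeronasal markers, Trpc2 and Vmn1r183 were listed at 0 in all libraries and Gnao1 was at 218 to 321 CPM. Of 3 erythroid genes, Hba-a1 and Hbb-bt were listed at 0 as well and Alas2 was at 8.09 to 19.1 CPM.

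The first question was whether the loss of the Taar cluster was accompanied by a change in the factors that act on receptor enhancers. No factor passed the test: in edgeR's quasi-likelihood fit 0 of the 8 reached an adjusted p of under 0.05 between any 2 genotypes. The same fit called 0 of the 16574 genes tested in each comparison (0%). DESeq2 called 8 genes (0.0371%) between homozygous and wild type, 3 (0.0139%) between heterozygous and wild type and 2 (0.00927%) between homozygous and heterozygous libraries, none of them a factor. Same-numbered wild type and homozygous libraries deviated together, and a fit of these 2 genotypes with a replicate block, added after the data were seen, called 39 genes (0.241%) and 0 factors. At an unadjusted p-value under 0.05 the edgeR fit found 500 genes (3.02%), 372 genes (2.24%) and 93 genes (0.561%) respectively, and 0 of the 8 factors in each. For no factor did the levels of any 2 genotypes separate without overlap. The share of all genes that separate in this way was not counted, so this is no trait particular to the factors. The median log2 fold change of the 8, homozygous against wild type, was 0.13, beside 0.02 over all genes tested. In whole tissue, fewer cells of a type and less RNA per cell cannot be told apart.

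**Figure D1:**
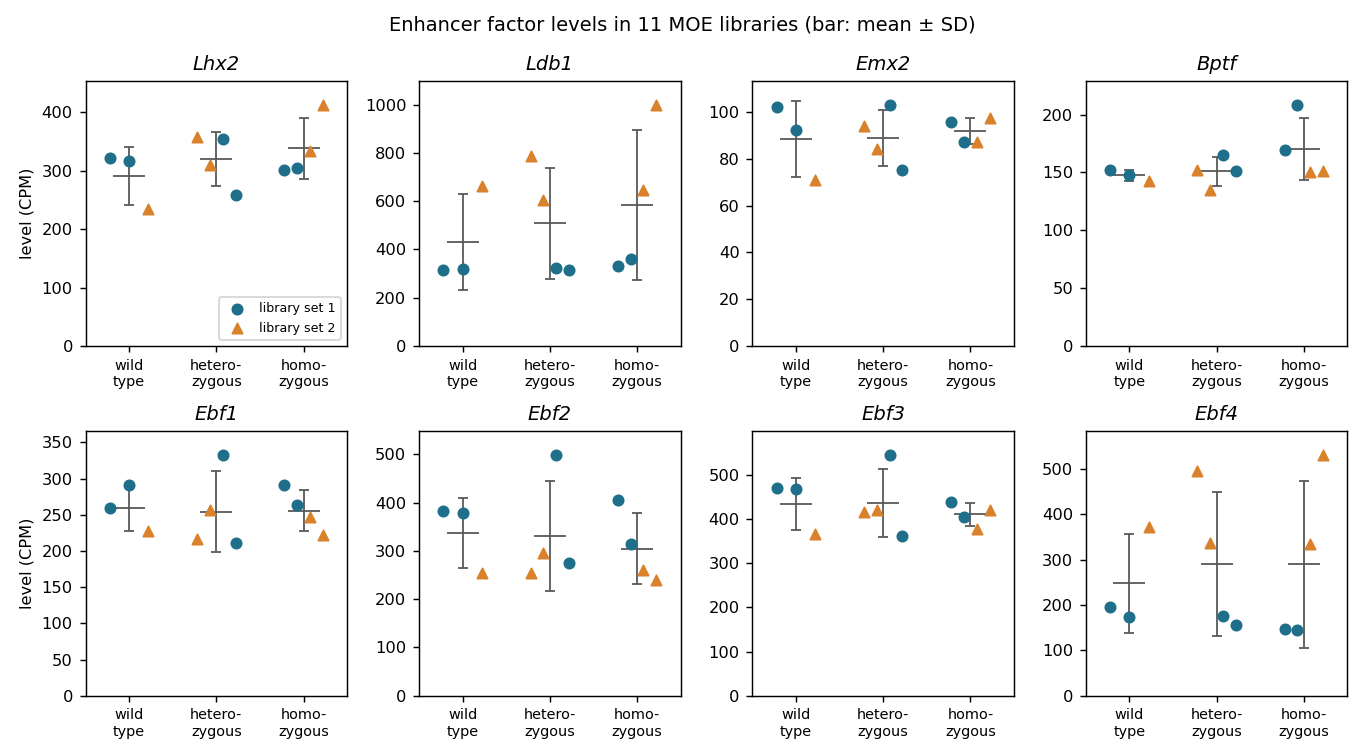
Level of each factor (CPM, linear axis from 0) in every library by genotype, with circles for library set 1 and triangles for library set 2, and the mean ± SD of each genotype as a bar. The genotypes overlap in every panel, while in those of Ldb1 and Ebf4 all triangles lie above all circles.

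Lhx2, the homeodomain factor, was at 322, 317 and 234 CPM in wild type replicates 1 to 3. The heterozygous libraries had 358, 309, 354 and 259 CPM of it and the homozygous ones 301, 304, 334 and 412 CPM, again in the order of replicates. The lowest of the 11 values was that of wild type 3 and the highest that of homozygous 4, and the 3 groups overlapped. The means were 291 ± 49.5 CPM (SD, n = 3), 320 ± 46.3 CPM (SD, n = 4) and 338 ± 51.7 CPM (SD, n = 4). The log2 fold change of homozygous against wild type was 0.21 (SE 0.18, 95% confidence interval -0.17 to 0.60, edgeR adjusted p = 0.996). The interval thus runs from a level of 0.886 to one of 1.52 times wild type. Wild type 3 also had a low level of Omp, the marker of mature OSNs, at 349 CPM beside 737 and 599 CPM in the other wild type libraries. Homozygous 2, however, had Omp at 346 CPM with Lhx2 at 304 CPM. Without wild type 3 the Lhx2 fold change was 0.08 on the log2 scale, and without homozygous 4 it was 0.11. With the libraries scaled to 7 neuronal genes it was 0.48 (unadjusted p = 0.045, edgeR adjusted p = 0.843), where the median over all genes was 0.24.

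Ldb1, the bridging partner of Lhx2, spread much more widely within each genotype. Its levels were 314, 321 and 661 CPM in wild type replicates 1 to 3 and 789, 605, 322 and 315 CPM in heterozygous replicates 1 to 4. The homozygous libraries had 332, 359, 647 and 998 CPM. Every genotype thus held low libraries, at 359 CPM or less, and high ones, at 605 CPM or more. The homozygous log2 fold change was 0.43 (SE 0.45, 95% confidence interval -0.55 to 1.42, edgeR adjusted p = 0.996), and that of heterozygous against wild type was 0.23 (SE 0.45, edgeR adjusted p = 0.99997). At this spread a change between 0.681 and 2.68 times wild type lay within the interval for the homozygous libraries. Without homozygous 4 the log2 fold change of Ldb1 was 0.05, and without wild type 3 it was 0.88. With the Xist level as a covariate the direction turned, to -0.29 for homozygous and -0.46 for heterozygous against wild type (edgeR adjusted p = 0.9997 and 0.9999). The 5′ end of the Ldb1 locus (chr19:46031570-46045214, minus strand) overlaps that of Pprc1 on the opposite strand, and 4.15% of the 51-base stretches of its longest coding transcript also occur in Pprc1 transcripts, read on either strand. Whether counting used strand is not given in the sources used here, so reads from this overlap cannot be assigned.

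The 4 Ebf genes are related in sequence, but no stretch of 51 bases in the longest coding transcript of one occurred in another, so that counts were not split between them at that length. Ebf1, which is also a factor of B cells and of mesenchyme, was at 260, 291 and 227 CPM in wild type replicates 1 to 3. It was at 217, 256, 333 and 211 CPM in heterozygous and 290, 264, 247 and 222 CPM in homozygous replicates 1 to 4. Its 3 means differed little, at 259, 254 and 256 CPM. The homozygous log2 fold change was -0.02 (SE 0.18, 95% confidence interval -0.41 to 0.37, edgeR adjusted p = 0.998). Of 6 B cell markers 4 had counts in every library and their summed level was 7.14 to 12.3 CPM, whereas 6 mesenchyme and bone markers summed to 1833 to 4577 CPM. How much of the Ebf1 RNA came from non-neuronal cells was not tested.

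Ebf2 was at 382, 378 and 254 CPM in wild type replicates 1 to 3. Its levels were 254, 295, 499 and 275 CPM in heterozygous and 406, 314, 261 and 239 CPM in homozygous replicates 1 to 4. Heterozygous 3 stood apart from the other heterozygous libraries. The homozygous log2 fold change of Ebf2 was -0.15 (SE 0.27, 95% confidence interval -0.73 to 0.43, edgeR adjusted p = 0.996). It was -0.32 without wild type 3 or without homozygous 1, and -0.05 without homozygous 4 or without wild type 1. In its longest coding transcript 6.44% of 51-base stretches also occur in the antisense transcript Gm10860.

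Ebf3 had the most counts of the Ebf genes in 8 of the 11 libraries. Its levels were 469, 468 and 366 CPM in wild type, 417, 421, 545 and 361 CPM in heterozygous and 440, 405, 378 and 420 CPM in homozygous libraries, each in the order of replicates. The homozygous values all lay within the wild type range, and the log2 fold change was -0.08 (SE 0.17, 95% confidence interval -0.44 to 0.28, edgeR adjusted p = 0.996). Without wild type 3 it was -0.19, and without wild type 1 it was -0.02. The antisense gene Gm45278 holds 4.25% of the 51-base stretches of the longest coding transcript of Ebf3, and reads from them cannot be assigned. With the Xist level as a covariate the homozygous values of Ebf1, Ebf2 and Ebf3 turned to 0.28, 0.37 and 0.14 on the log2 scale. They also turned with scaling to 7 neuronal genes, to 0.23, 0.14 and 0.18, all below the median of 0.24 over all genes.

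Ebf4, another DNA-binding member of the family, spread as widely as Ldb1 within each genotype. It was at 196, 175 and 373 CPM in wild type replicates 1 to 3 and at 496, 337, 176 and 156 CPM in heterozygous ones. The homozygous libraries had 147, 146, 335 and 532 CPM. In each genotype low values, of 196 CPM or less, stood beside high ones, of 335 CPM or more. The homozygous log2 fold change was 0.23 (SE 0.52, 95% confidence interval -0.90 to 1.35, edgeR adjusted p = 0.996). Without homozygous 4 it was -0.24, and without wild type 3 it was 0.64. With the Xist level as a covariate it was -0.63. In each of the 3 same-numbered pairs the homozygous library had the lower value, and the fit of only these 2 genotypes with a replicate block, in which homozygous 4 has no partner, gave -0.30 (SE 0.12, edgeR adjusted p = 0.750). The replicate block over all 3 genotypes gave 0.067 (adjusted p = 0.9999).

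Emx2, the homeodomain factor whose promoter held the TAATTA letters, was the factor with the fewest counts (703 to 1381 per library). Its levels were 102, 92.4 and 70.7 CPM in wild type, 93.9, 84.2, 103 and 75.2 CPM in heterozygous and 95.9, 87.1, 87.1 and 97.2 CPM in homozygous libraries. The wild type range enclosed all 4 homozygous values, as did the heterozygous range. The homozygous log2 fold change was 0.05 (SE 0.15, 95% confidence interval -0.28 to 0.39, edgeR adjusted p = 0.996). It was -0.08 without wild type 3 and 0.17 without wild type 1. The antisense gene Emx2os overlaps the 5′ part of the Emx2 locus (chr19:59458372-59465357, plus strand), shares 7.47% of the 51-base stretches of the transcript and was at 10.9 to 17.4 CPM. Reads of the overlap cannot be assigned to either gene.

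Bptf, the remodelling subunit, showed the least spread among the 3 wild type libraries. It was at 152, 148 and 142 CPM in wild type, 152, 135, 165 and 152 CPM in heterozygous and 170, 208, 151 and 152 CPM in homozygous libraries. The highest value was that of homozygous 2, the library rich in Rn45s, while homozygous 3 and 4 lay within the wild type range. The homozygous log2 fold change was 0.20 (SE 0.14, 95% confidence interval -0.10 to 0.51, edgeR adjusted p = 0.996), and without homozygous 2 it was 0.08. Each of the 3 same-numbered pairs had the higher value in the homozygous library. The fit of only these 2 genotypes with a replicate block, chosen after seeing the data, gave 0.22 (SE 0.12, edgeR adjusted p = 0.833). In homozygous 2 the stress and early response genes Zfp36 and Dusp1 were at 289 and 348 CPM, against at most 64.6 and 109 CPM in any other library; these genes and their values were noted after the data were seen. The part of this library's condition in the Bptf value was not tested.

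**Figure D2:**
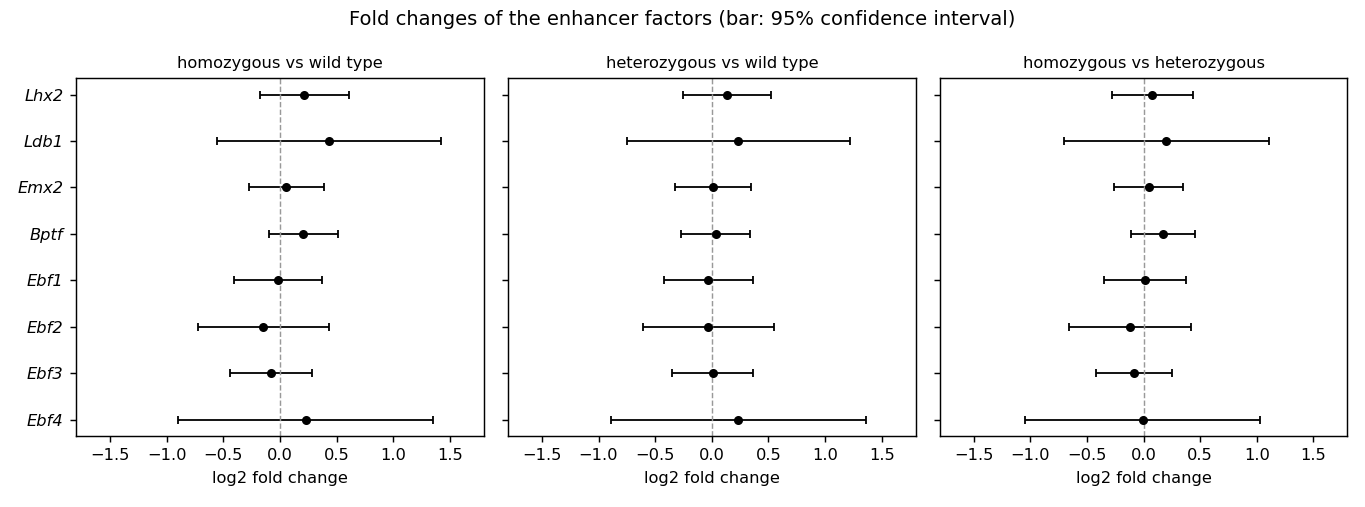
Log2 fold change of each factor from the edgeR fit in the 3 comparisons (points), with 95% confidence intervals as bars and a dashed line at 0. All 24 intervals include 0, and those of Ldb1 and Ebf4 are the widest.

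The heterozygous libraries, with 1 intact copy, were set against both other groups. Against wild type the log2 fold changes of the 8 factors lay between -0.03 (Ebf2) and 0.23 (Ldb1), with a median of 0.02 beside 0.0018 over all genes. Between homozygous and heterozygous libraries they lay between -0.12 (Ebf2) and 0.20 (Ldb1), with a median of 0.03 beside 0.0062 over all genes. In both comparisons the values of Ebf2 and Ldb1 changed sign in some fits that left out a single library. These comparisons share libraries with the first and are no separate evidence.

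The wide spread of Ldb1 and Ebf4 followed the 2 library sets. Ldb1 was at 314 to 359 CPM in the 6 libraries of set 1 and at 605 to 998 CPM in the 5 of set 2. Ebf4 was at 146 to 196 CPM in set 1 and at 335 to 532 CPM in set 2. Neither gene overlapped between the sets. By mean log2 CPM, Ldb1 in set 2 was at 2.22 times and Ebf4 at 2.46 times its set 1 level. The 2 genes thus differed between the sets by 1.15 and 1.30 in log2 CPM. They ranked 456 and 295 of the 16574 genes by this difference. Of all genes, 2657 (16.0%) lay wholly above in set 2 and 1803 (10.9%) wholly below, so a separation of this kind was common. Since the sets were found in the data and the labels give no reason for them, they are described here without a test. The 5th and 95th percentiles of the difference over all genes were -0.75 and 0.95.

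The other 6 factors overlapped between the sets. Lhx2 averaged 310 CPM in set 1 and 329 CPM in set 2, and Emx2 92.6 and 86.6 CPM. Ebf2 tended the opposite way to Ebf4, with means of 375 CPM in set 1 and 260 CPM in set 2 and a difference of -0.51 in log2 CPM. The separation of Ldb1 and Ebf4 was present in each genotype: among wild type libraries, Ldb1 averaged 317 CPM in set 1 and was at 661 CPM in the 1 library of set 2, and the homozygous means were 346 and 822 CPM. Respiratory ciliated markers summed to 386 to 580 CPM in set 1 and 242 to 335 CPM in set 2, while mature OSN markers overlapped (1502 to 2720 CPM and 1579 to 1963 CPM). Of the ciliated markers, Dnah5 was at 136 to 229 CPM in set 1 and 40.7 to 69.3 CPM in set 2. Foxj1 overlapped (210 to 305 and 139 to 233 CPM), and Tekt1 barely separated (lowest 39.42 CPM in set 1, highest 39.36 CPM in set 2). What set the libraries apart was not tested.

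With the set as a further term of the fit, the standard error of the homozygous log2 fold change fell from 0.45 to 0.16 for Ldb1 and from 0.52 to 0.18 for Ebf4. The fold changes were then 0.20 for Ldb1 (adjusted p = 0.747) and -0.12 for Ebf4 (adjusted p = 0.875), so that the sign for Ebf4 turned. That of Lhx2 was 0.20 (adjusted p = 0.764) and that of Bptf 0.23 (adjusted p = 0.705). Within set 1 the mean Ldb1 level of homozygous libraries differed from wild type by 0.12 and that of Ebf4 by -0.34 in log2, and within set 2 by 0.32 and 0.22.

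Because the ratio of 2 counts in the same library does not depend on scaling, Ldb1 was also set against Lhx2, its binding partner. There were 0.909 to 1.22 Ldb1 counts per Lhx2 count in the libraries of set 1 and 1.93 to 2.83 in those of set 2. By genotype the wild type ratio averaged 1.604 ± 1.06 (SD, n = 3), the heterozygous 1.57 ± 0.610 (SD, n = 4) and the homozygous 1.66 ± 0.631 (SD, n = 4). The ratio of Ldb1 to Ebf4 overlapped between the sets, at 1.5998 to 2.46 in set 1 and 1.59 to 1.93 in set 2. By genotype it was 1.5998, 1.84 and 1.77 in wild type, 1.59, 1.79, 1.83 and 2.02 in heterozygous and 2.25, 2.46, 1.93 and 1.88 in homozygous libraries. The 4 homozygous ratios thus lay above the 3 wild type ones, and the heterozygous ratios overlapped both. This was noticed in the values and was not tested, and how often other ratios separate in this way was not counted.

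The summed level of the 4 Ebf genes overlapped between the sets, with means of 1264 ± 187 CPM (SD, n = 6) and 1309 ± 89.5 CPM (SD, n = 5). Its make-up differed. Ebf4 supplied 11.3% to 15.6% of the Ebf counts in set 1 and 25.7% to 37.6% in set 2. Over the same libraries the share of Ebf2 was 27.4% to 32.1% in set 1 and 16.9% to 22.5% in set 2, and that of Ebf3 34.3% to 36.0% and 29.7% to 32.2%. These 3 shares did not overlap between the sets, whereas that of Ebf1 did (19.9% to 23.4% and 15.7% to 20.2%). As shares of 1 sum, they are not independent of each other. The Ebf4 share averaged 19.6% ± 9.50 (SD, n = 3) over the wild type and 22.4% ± 12.5 (SD, n = 4) over the homozygous libraries, a difference smaller than either SD.

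**Figure D3:**
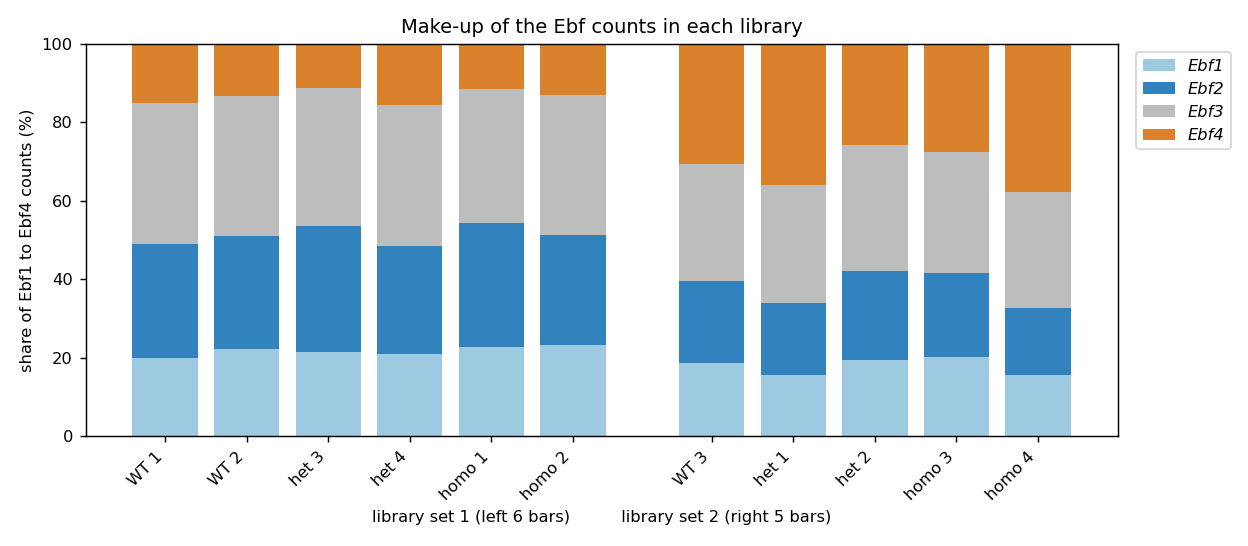
Share of Ebf1, Ebf2, Ebf3 and Ebf4 in their summed counts (percent, stacked to 100) for each library, with set 1 on the left and set 2 on the right (WT wild type, het heterozygous, homo homozygous). The Ebf4 segment is 11.3% to 15.6% in set 1 and 25.7% to 37.6% in set 2, in all 3 genotypes.

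To compare levels between genes, CPM was divided by the exonic length in kilobases, the union of annotated exons (GENCODE M21, mm10). On this per-length scale the order was Ldb1 (112 ± 51.7 CPM per kb), Ebf4 (86.2 ± 44.2), Lhx2 (72.5 ± 10.9), Ebf2 (46.7 ± 11.9), Ebf3 (46.2 ± 5.82), Emx2 (29.9 ± 3.44), Ebf1 (26.3 ± 3.84) and Bptf (11.1 ± 1.38; SD, n = 11 for each). The ranges of neighbours overlapped in this order except between Ebf3 and Emx2 and between Ebf1 and Bptf. In set 1 Ldb1 and Lhx2 were level at 71.1 ± 3.67 and 70.5 ± 7.12 CPM per kb, and Ebf4 was the fourth. In set 2 Ldb1 (161 ± 34.7 CPM per kb) and Ebf4 (128 ± 28.7) led and Lhx2 (75.0 ± 14.9) was the third. Ebf3, the leader of its family by count, thus stood below Ebf4 per length. The annotation used for counting is not given in the sources used here, so these lengths may differ from those counted.

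The factors were then compared with each other across the 11 libraries, as Pearson's r of log2 CPM after the means of genotype and set had been removed. With 7 residual degrees of freedom and a shared scaling these are descriptions. Lhx2 and Emx2 varied together (r = 0.93, Spearman's rho = 0.85, and r = 0.92 or 0.85 without the 2 libraries farthest from the median of the one or the other gene), and both varied with Omp (r = 0.86 and 0.88). Ebf3 was like Emx2 (r = 0.89) and Lhx2 (r = 0.80). It also had a high r with Ebf2 (0.85) and Ebf1 (0.79), which fell to 0.33 and 0.087 without the 2 farthest libraries. Ebf1 and Ebf2 formed another pair (r = 0.95, rho = 0.84, and 0.76 without those 2 libraries), with r = 0.75 and 0.82 to Gap43, the marker of immature OSNs, and 0.30 and 0.44 to Omp. Without the 2 farthest libraries the values with Gap43 were 0.45 and 0.65. Ebf3, Emx2 and Lhx2 were also like Gap43 (r = 0.85, 0.80 and 0.71). Ebf4 and Ldb1 varied together over the 11 libraries (r = 0.91, rho = 0.86, and 0.85 or 0.74 without 2 libraries). Their levels within set 1 alone did not rise together. Wild type 1 had the lowest Ldb1 and highest Ebf4 level of that set (314 and 196 CPM). Homozygous 2 had its highest Ldb1 and lowest Ebf4 level (359 and 146 CPM). Ebf4 also had an r of 0.77 with Lhx2. For Bptf r ran from -0.11 to 0.22 and rho from -0.33 to 0.53, the latter with Ldb1. These values were unstable: r between Bptf and Ebf2 was -0.81 without the 2 libraries farthest in Ebf2 and 0.31 without those farthest in Bptf.

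**Figure D4:**
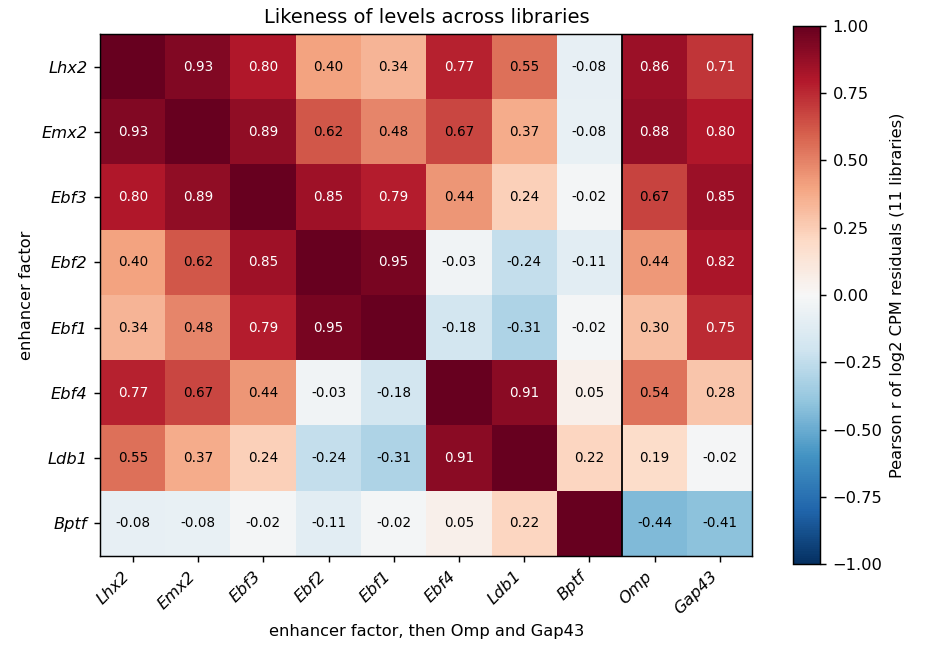
Pearson's r of log2 CPM residuals over 11 libraries, after removal of genotype and set means, between each pair of factors and between each factor and Omp and Gap43. The highest values are those of Ebf1 with Ebf2 (0.95), Lhx2 with Emx2 (0.93) and Ebf4 with Ldb1 (0.91), Ebf3 is high with Emx2, Ebf2, Lhx2 and Ebf1, and the row of Bptf runs from -0.11 to 0.22 for the other factors, values that changed when 2 libraries were left out.

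Among all other genes tested, those most like each factor on the same measure over 11 libraries were Nploc4 and Dtx1 for Lhx2 (r = 0.997 and 0.994), and Sult4a1 and Adcy3 for Emx2 (r = 0.99 for both). Adcy3 is the adenylyl cyclase of odour transduction. For Ldb1 they were Bzrap1 and Skiv2l (r = 0.99 for both), and for Ebf4 Unc13a and Rnf44 (r = 0.98 for both). For Ebf1 they were Efcab5 and Cntn4 (r = 0.98 and 0.97), for Ebf2 Mb21d2 and Emx1, the paralog of Emx2 (r = 0.99 for both), and for Ebf3 Apbb1 and Add2 (r = 0.98 for both). Zfp36 and Dusp1 were nearest to Bptf (r = 0.97 and 0.94). As the highest values among all genes tested, such r are high by selection.

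Of 17 partners and paralogs of the factors 16 were tested; Lhx9, the nearest relative of Lhx2, was left out at 0 to 0.168 CPM. None passed the test in either direction in any comparison, and 7 had positive and 9 negative log2 fold changes in homozygous against wild type libraries (median -0.08, beside 0.02 over all genes). The most abundant were Ssbp3 and Ssbp4, single-stranded DNA binding proteins that join Ldb1 complexes, the histone-binding NURF subunit Rbbp4, and Lmo4, a LIM-only protein that binds Ldb1. Their log2 fold changes were 0.04, 0.39, -0.09 and 0.09 (edgeR adjusted p = 0.996 for each). Of the 16, 3 lay wholly above and 2 wholly below in set 2, shares near those of all genes (16.0% and 10.9%). Those above were Ssbp4, at 73.8 to 98.6 CPM in set 1 and 99.3 to 171 CPM in set 2, Rlim, a ubiquitin ligase that acts on Ldb1 (58.1 to 74.1 and 87.9 to 175 CPM), and Lmo2 (33.1 to 37.2 and 41.8 to 49.9 CPM). Those below were Smarca5 and Rbbp7, chromatin remodelling proteins.

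Of 19 other transcription factors of the olfactory neuron lineage, all tested, none passed the test in either direction in any comparison. In homozygous against wild type libraries 15 had positive and 4 negative log2 fold changes, with a median of 0.09 and a range of -0.28 (Nfib) to 0.40 (Neurog1). The most abundant were Atf5, a stress-responsive factor of OSN maturation (0.12), and Nfix, Tshz1 and Nfib (0.07, 0.05 and -0.28, edgeR adjusted p = 0.996 for each). Of the 19, 0 lay wholly above in set 2, beside 16.0% of all genes, and 2, Sox2 and Nfia, lay wholly below, beside 10.9%.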

How the data were processed

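Whole MOE RNA was polyA-selected and sequenced with a directional kit, per the labels. The authors trimmed reads (Trimmomatic 0.36 in the submitters' processing notes), aligned them to mm10 (HISAT2 2.1.0), deposited raw read counts per gene (featureCounts, Subread 1.6.2) and named DESeq2 1.20.0; annotation, strand setting and multi-mapping reads are not given in the sources used here. The authors also deposited a normalised signal, count divided by a size factor, used here only for its gene list of 23129 entries.

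Counts were tested in edgeR 4.0.16 (R 4.3.3; TMM, filterByExpr, quasi-likelihood F-test, 3 genotypes, 11 libraries), with Benjamini-Hochberg adjustment over 16574 genes and a threshold of 0.05. The fitting code was tested on simulated data. CPM used the TMM-scaled library sizes; log2 CPM used a prior count of 2. Likeness used residuals of genotype and set. Alternatives were RLE scaling, no filter, DESeq2 1.42.0, a replicate block, library set, Xist level, only 2 genotypes, neuronal scaling, the normalised gene list and leaving out each library. Same-numbered wild type and homozygous libraries deviated together over genes (r = 0.33, 0.42 and 0.40), wild type and heterozygous ones did not (-0.19, -0.38 and -0.23), nor did heterozygous and homozygous ones (-0.40 to -0.58). The pairing of the first comes from the data only, and those same-numbered libraries also share their set.

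Named were the 8 factors, list genes with an unadjusted p-value under 0.05 or else the 4 most abundant, and the 2 genes most like each factor; Meg3, Xist, Rn45s and genes that separated the sets were named after their values were seen. The factors and lists were chosen with earlier results of these data known. Depth was 9239866 to 14632525 counts per library, with 3 or 4 libraries per genotype. Tables had 0 columns of no sample. Coordinates came from GENCODE M21 and RefSeq.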

Additional observations from a re-analysis of the deposited data

Results flagged for a closer look

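Within the 16 groups of 4 libraries (8 factors in heterozygous and in homozygous mice), 1 value lay far from the others by Dixon's gap criterion. Ebf2 was at 499 CPM in heterozygous 3 and at 254 to 295 CPM in the other 3 heterozygous libraries, a gap of 0.832 of the whole range and just past the critical value. Chance gives about 1 such value in 20 groups. The same library had the highest Ebf1 and Ebf3 levels, 333 and 545 CPM, and the highest Gap43 level, 249.2 CPM. Without it the homozygous against heterozygous log2 fold change of Ebf2 was 0.15 instead of -0.12.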

How the results depend on the processing

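Over 21 alternatives and 488 fold changes of the factors, 0 had an adjusted p-value under 0.05 and 2 an unadjusted one: Lhx2 at 0.48 (adjusted p = 0.843), homozygous against wild type, under neuronal scaling, and Ebf4 below.

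Genes called among all tested were 8, 3 and 2 by DESeq2 (homozygous and then heterozygous against wild type, then homozygous against heterozygous) and 0 under the others except one, and factors called were 0 under each. The exception, a replicate block with only homozygous and wild type libraries chosen after seeing the data, called 39 genes; its log2 fold changes were -0.30 for Ebf4 (adjusted p = 0.750) and 0.025 for Ebf1, both opposite in sign to the values reported. For Ebf4 the replicate block over all 3 genotypes gave 0.067 and leaving out homozygous 4 gave -0.24. The replicate block over all 3 genotypes called 0 genes and turned Ebf1 to 0.054 (homozygous) and 0.037 (heterozygous, both against wild type) and Ebf2 to 0.066 (heterozygous). It changed no call.

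Of the fold changes 64 changed sign and 424 did not. Neuronal scaling raised the median of all genes to 0.24, 0.11 and 0.12 in the 3 comparisons and turned Ebf1 (0.23), Ebf2 (0.14) and Ebf3 (0.18) in homozygous against wild type, Ebf1 (0.074) and Ebf2 (0.095) in heterozygous against wild type, and Ebf2 (0.043), Ebf3 (0.056) and Ebf4 (0.078) in homozygous against heterozygous libraries. These values all lie below that shift of all genes. With the Xist level, homozygous against wild type values were -0.29 for Ldb1, 0.28 for Ebf1, 0.37 for Ebf2, 0.14 for Ebf3 and -0.63 for Ebf4, and heterozygous ones -0.46, 0.24, 0.44 for Ldb1, Ebf1 and Ebf2 and -0.57 for Ebf4. With the set, they were 0.020 for Ebf1 and -0.12 for Ebf4 (homozygous), and 0.012, 0.060 and -0.062 for Ebf1, Ebf2 and Ebf4 (heterozygous). Ebf1 in homozygous against heterozygous libraries was -0.00094 with RLE scaling, -0.0082 without the filter and -0.00064 on the normalised gene list. The cause of these turns was not tested.

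Leaving out each library gave, homozygous against wild type, 0.080 to 0.29 for Lhx2, 0.046 to 0.88 for Ldb1, -0.11 to 0.071 for Ebf1, -0.32 to -0.047 for Ebf2, -0.19 to -0.021 for Ebf3, -0.24 to 0.64 for Ebf4, -0.084 to 0.17 for Emx2 and 0.083 to 0.26 for Bptf. Heterozygous against wild type it gave -0.061 to 0.68 for Ldb1, -0.19 to 0.061 for Ebf1, -0.30 to 0.077 for Ebf2, -0.12 to 0.089 for Ebf3, -0.15 to 0.65 for Ebf4, -0.13 to 0.13 for Emx2 and -0.013 to 0.082 for Bptf. Homozygous against heterozygous it gave -0.034 to 0.14 for Lhx2, -0.19 to 0.50 for Ldb1, -0.096 to 0.17 for Ebf1, -0.29 to 0.15 for Ebf2, -0.19 to 0.038 for Ebf3, -0.48 to 0.38 for Ebf4 and -0.052 to 0.12 for Emx2.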
